A study of Mus musculus with 15 samples.

Results

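Transcripts annotated as targets of nonsense-mediated decay (NMD) were measured in the kidneys of 15 mice. NMD is a surveillance pathway that degrades an mRNA when a ribosome stops well before the last exon-exon junction. Splicing leaves an exon junction complex upstream of each junction, the first round of translation normally strips these complexes away, and a complex that remains behind a stop codon recruits the UPF and SMG proteins to the terminating ribosome. Many such transcripts come from alternative splicing of ordinary genes, through a skipped exon, an included "poison" exon or an intron that is kept in part, and genes of splicing factors are known to limit their own output in this way.

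All 15 animals were wild-type (WT) male C57BL/6 mice bought at 8 weeks of age, and no group carried a transgene or deletion. Control mice (n = 5) received saline and Ang II mice (n = 5) received angiotensin II, a peptide that raises blood pressure, at 500 ng/kg/min for 28 days. Ang II + QDG mice (n = 5) received the same infusion and Qingda granule, a herbal formula, at 1.145 g/kg/day by gavage, and the other mice were gavaged with double-distilled water. Kidney RNA was depleted of ribosomal RNA and sequenced, and the study's methods also name a poly(A) selection that the labels do not, so how far unspliced RNA was read is not settled. The RNA of all kidney cells was read together, and fewer cells of a type cannot be told apart from less RNA per cell.

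A transcript was included when its Ensembl identifier was listed in all 15 mice, its GENCODE M21 biotype was nonsense_mediated_decay and its level was at least 1 FPKM (fragments scaled to the transcript's length and the depth of the mouse) in at least 5 mice. This gave 716 transcripts of 640 genes, out of 1136 NMD transcripts listed in all mice and 28812 transcripts of any kind that passed the same filter. The other 420 NMD transcripts fell below the filter and were not tested. The filter used levels in all 15 mice without regard to group, and 0 of the 716 passed through the mice of a single group. Some passed without any mouse of a group: 30 were under 1 FPKM in every Control mouse, 6 in every Ang II mouse and 10 in every Ang II + QDG mouse. Just inside it were Zscan25-202, Tmem41b-206 and Inpp5k-207, with 1.00, 1.00 and 1.01 FPKM in the mouse ranked 5 from the top. Just outside it were Dnajc13-207, Abhd11-203 and Mettl5-204, with 0.9997, 0.994 and 0.993 FPKM in that mouse. Of the 716, 145 reached 1 FPKM in all mice, 86 in exactly 5 mice, and 317 were listed at 0 in 1 or more mice.

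The values implied totals of 68900000 to 81300000 reads or fragments per mouse, and the median NMD transcript held 170 to 273 reads in a mouse. The files of the Control mice listed 41477 transcripts each and those of both other groups 42310 each, so a difference in how the Control files were made cannot be told apart from the absence of Ang II. The tissue label matched its markers: the 4 proximal tubule markers summed to 2419 to 3675 FPKM, and the adrenal marker that was listed stayed between 0.692 and 1.45 FPKM. The 2 podocyte markers summed to 30.8 to 32.4 FPKM in Control, 42.9 to 60.9 FPKM in Ang II and 37.2 to 51.7 FPKM in Ang II + QDG mice. The 2 erythroid markers summed to 390 to 954, 614 to 1157 and 848 to 1778 FPKM. The 3 smooth muscle markers summed to 35.8 to 49.4, 41.8 to 94.5 and 51.7 to 59.9 FPKM and the 3 fibroblast markers to 4.44 to 8.07, 7.35 to 17.7 and 7.15 to 14.2 FPKM. The part of these cell type differences in the results below was not tested.

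The annotated structures followed the rule after which the biotype is named. In 713 of the 716 transcripts the last exon junction lay 50 bases or more after the stop codon, at a median distance of 424.5 bases (quartiles 197.75 and 893.5). Among 14495 tested protein_coding transcripts with an annotated stop, 43 (0.297%) had such a stop. A single junction followed the stop in 155 NMD transcripts, 2 in 126, 3 in 119 and 4 or more in 315. The stop codon was TGA in 393, TAG in 162 and TAA in 161.

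**Figure D1:**
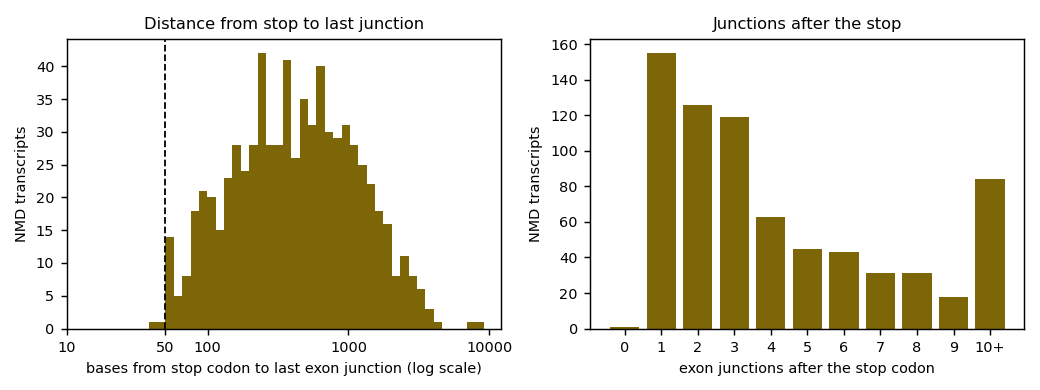
Left, distance in bases (log scale) from the stop codon to the last exon junction of the NMD transcripts, with a dashed line at 50 bases. Right, number of NMD transcripts by the number of exon junctions after the stop codon. Nearly all of the 716 lie to the right of the line, and 315 have 4 or more junctions after the stop.

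The early stop arose in a few ways. In 370 transcripts (51.7%) it lay in bases that a coding transcript of the same gene also translates, as happens when an upstream splice shifts the reading frame. In 251 (35.1%) it lay in bases that no coding transcript of the gene has in an exon, that is, in an added exon or an extended one, and in 131 the whole exon holding the stop overlapped no exon of a coding transcript. In 70 (9.78%) the stop was the one a coding transcript uses, and a junction further down made the difference. The annotated coding sequence was short: its median was 32.8% of that of the gene's longest coding transcript, and it was under 50% in 496 of the 703 that could be compared.

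The ends of the open reading frames of 9 transcripts that the results turn on are given here, with the last 27 coding bases in lower case and the stop codon in capitals, 5′ to 3′ on the strand of the gene, from the GENCODE M21 transcript sequences (GRCm38, the mm10 build). The first 5 were chosen, after their values were seen, among those with the smallest p-values or a change at the study's threshold in both steps of the design. The others stand for the splicing factors (Ddx5-208), the highest mean level (Chpt1-207) and a gene with 4 NMD transcripts (Tmem234-210). Slc47a1-202 is 1 of those with the highest level and the highest mean share.
Icmt-204: cggctagtgctccccccacagccagtgTAG
Col27a1-206: ccccaggagagaggcctggagctgcctTGA
Usp4-207: gggaaactcctcaaactcaactgcctgTGA
Atp11a-207: tcccaaaagagatctgctgtggaaaagTAA
Pofut2-203: aaggagctagggacggggctcctccctTAA
Ddx5-208: accgatgtggcctccagagggctaggtTAG
Slc47a1-202: aaatacttgctcaaccagatccttgcaTGA
Chpt1-207: ccggaacaggtttacaagcatattgacTGA
Tmem234-210: acggacgagcccctgaaaatttcaccaTAG

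The stop of Icmt-204 (ENSMUST00000151372) lies at chr4:152299168-152299170 on the plus strand. It is in exon 3 of 6, a 109-base exon at chr4:152299137-152299245 that overlaps no exon of a coding transcript, and 3 junctions follow it. The stop of Col27a1-206 (ENSMUST00000183913) lies at chr4:63318237-63318239 on the plus strand, in exon 24 of 40 and 1309 bases before the last junction. That of Usp4-207 (ENSMUST00000194224) is at chr9:108384402-108384404, in exon 17 of 18 and in bases that a coding transcript also translates. That of Slc47a1-202 (ENSMUST00000131723) is at chr11:61366883-61366885 on the minus strand, in a 366-base exon that overlaps no coding exon, with 11 junctions after it. In Chpt1-207 (ENSMUST00000139109) the stop at chr10:88475405-88475407 is also the stop of a coding transcript, and 1 junction 72 bases further on gives it the NMD label. The Tmem234-210 stop at chr4:129601177-129601179 is shared with Tmem234-203 and Tmem234-209.

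Most NMD transcripts were low. Their mean over the 15 mice had a median of 1.89 FPKM (quartiles 1.16 and 3.87), against 4.23 FPKM for tested protein_coding transcripts, and 369 of the 716 had a mean under 2 FPKM. The median NMD transcript held 14.9% of the summed FPKM of its gene's listed transcripts, over the 644 whose share could be tested. 55 held 50% or more, 238 held under 10%, and 104 were the highest listed transcript of their gene. The 8 highest NMD transcripts carried 27.1% of the FPKM of all 716.

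The highest was Chpt1-207, of the gene for cholinephosphotransferase, which makes phosphatidylcholine. It stood at 622, 663, 126, 158 and 615 FPKM in the Control, 144, 248, 153, 660 and 645 FPKM in the Ang II and 581, 510, 270, 112 and 278 FPKM in the Ang II + QDG mice. High and low mice occurred in every group, the groups overlapped throughout, and its mean share of its gene was 76.7%. Tmem176a-207, of a membrane protein gene, was even: 158 to 204 FPKM in Control, 149 to 221 FPKM in Ang II and 141 to 191 FPKM in Ang II + QDG mice, at a mean share of 43.7%. Slc47a1-202 belongs to the gene of MATE1, an exporter of organic cations at the proximal tubule brush border. It ranged from 129 to 187, 117 to 184 and 121 to 174 FPKM and held 94.7% of its gene's listed FPKM, while the coding transcript Slc47a1-204 ranged from 1.56 to 12.5 FPKM.

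Other NMD transcripts also held most of their gene's listed FPKM. Smdt1-204, of a regulator of the mitochondrial calcium uniporter, held 94.7% of its gene at 9.21 to 17.6 FPKM over all mice, with no coding transcript listed beside it in all mice. Tspan5-207 held 89.8%, Prkag3-204 88.6% (beside another NMD transcript only), Rbm7-204 85.5% and Glo1-201 85.1%. Glo1, glyoxalase 1, detoxifies methylglyoxal, and Glo1-201 was among the steadiest members, at 48.8 to 52.6 FPKM in Control, 45.1 to 50.8 FPKM in Ang II and 45.8 to 49.7 FPKM in Ang II + QDG mice. These shares rest on how reads were divided among overlapping transcripts and on which transcripts were listed in all mice. Of the 28812 transcripts tested, 7791 were assembled ones without an Ensembl identifier. These carry no gene and were left out of every gene sum and share.

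The first comparison, Ang II vs. Control, asked which transcripts changed with the infusion. On the log2(FPKM + 1) scale, 2 of the 716 NMD transcripts were upregulated and 0 were downregulated at an adjusted p under 0.05 (limma with Benjamini-Hochberg adjustment over all 28812 transcripts), against 0.531% and 0.16% of all transcripts tested. The 2 were Icmt-204 and Col27a1-206.

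Icmt encodes the methyltransferase that caps prenylated proteins such as RAS. Icmt-204 was at 3.81, 4.15, 5.78, 4.64 and 5.06 FPKM in Control mice, 9.36, 10.003, 16.004, 11.4 and 9.29 FPKM in Ang II mice and 10.03, 10.5, 11.7, 7.46 and 8.67 FPKM in Ang II + QDG mice. Every treated mouse was above every Control mouse, and the treated groups overlapped. The difference in Ang II vs. Control was 1.09 ± 0.16 (SE; log2(FPKM + 1) scale; adjusted p = 0.0161, limma), and it passed under all 23 alternative settings (adjusted p from 0.00598 to 0.0411). In Ang II + QDG vs. Ang II it was -0.18 (95% interval -0.52 to 0.16). The summed level of the gene rose as well, by 1.03 (adjusted p = 0.00392, limma), and Icmt-204 kept 75.7% ± 13.3 (SD, n = 5) of it in Control mice, 80.2% ± 6.9 in Ang II mice and 76.9% ± 5.7 in Ang II + QDG mice.

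Col27a1 encodes the chain of a fibrillar collagen of cartilage and other matrices. Col27a1-206 was at 0.0157, 0.658, 0.0166, 0.272 and 0.194 FPKM in Control mice, 1.70, 1.28, 1.86, 0.713 and 1.66 FPKM in Ang II mice and 2.02, 1.45, 0.948, 0.745 and 1.85 FPKM in Ang II + QDG mice. It met the filter through treated mice alone, the groups in which it was higher. The Control mice were again below all others, though narrowly, with 0.658 FPKM in the highest Control and 0.713 FPKM in the lowest Ang II mouse. The difference in Ang II vs. Control was 0.99 ± 0.20 (SE; adjusted p = 0.0446, limma). It passed under 7 of 22 alternatives, with an adjusted p of up to 0.105, and was lost without any of Control 1, 3, 4 or 5, Ang II 1, 2, 3 or 5, or Ang II + QDG 2 or 5. The coding transcript Col27a1-201 was also low in Control mice 1, 3 and 4 (0.00828, 0.0578 and 0.0565 FPKM) and between 5.34 and 8.65 FPKM in the Ang II mice, and the gene sum rose by 2.17 (adjusted p = 0.0155, limma).

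**Figure D2:**
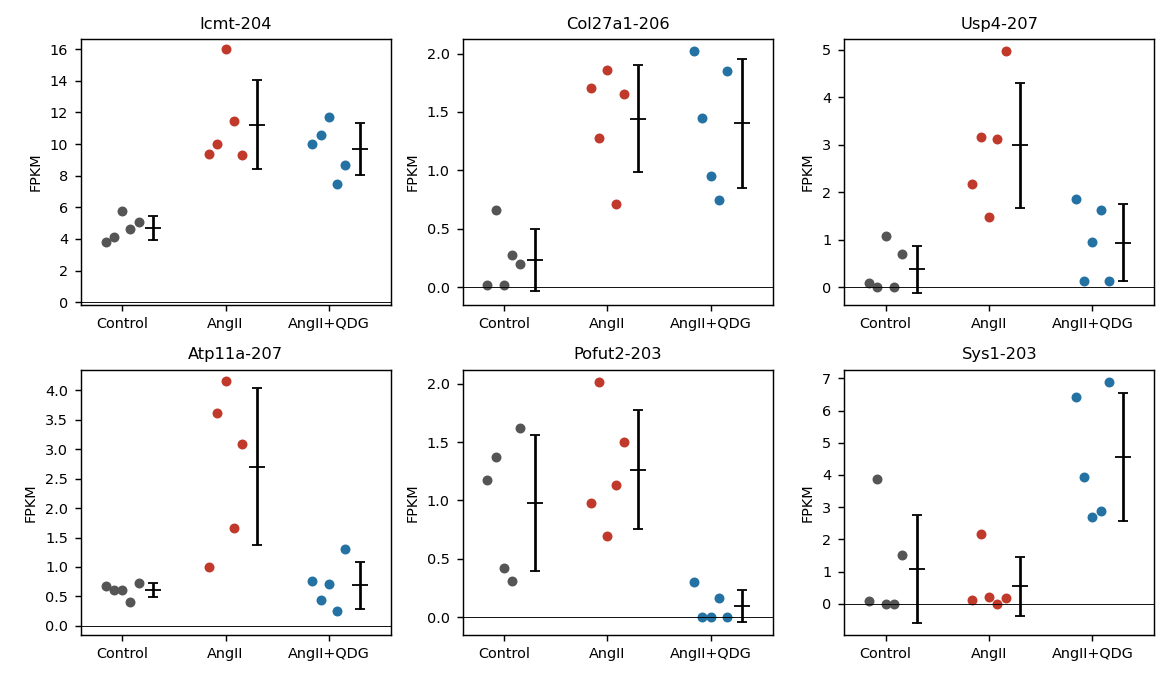
FPKM of 6 NMD transcripts in each mouse (points) with the mean and SD of each group of 5 (bars at the right of the points). Icmt-204 and Col27a1-206 are higher in all treated mice than in all Control mice, Usp4-207 and Atp11a-207 have their highest means in Ang II mice, Pofut2-203 is at or near 0 and Sys1-203 is high in Ang II + QDG mice.

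The study's own threshold (2-fold or more, at an unadjusted p under 0.05) was applied here to FPKM + 1. A low transcript can thus miss it at a 2-fold change in FPKM, and the counts are not those of the study. At this threshold 24 NMD transcripts (3.35%) were upregulated and 6 (0.838%) downregulated in Ang II vs. Control, against 1.93% and 0.954% of all transcripts. At an unadjusted p under 0.05 without a fold, 92 NMD transcripts (12.8%) passed, against 15.9% of all. In 18 (2.51%) every Ang II mouse was above every Control mouse, against 4.32% of all transcripts, and in 2 (0.279%) every one was below, against 1.06%. Whether these shares differ from those of all transcripts was not tested.

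The upward split depended on scaling. When each mouse was scaled to the same median, 12 rose and 9 fell at that threshold (1.68% and 1.26%, against 1.25% and 1.37% of all transcripts), and with quantile normalization 12 and 8 (1.68% and 1.12%, against 1.31% and 1.33%). These scalings moved the median difference of all transcripts by 0.11 and 0.10. The median NMD transcript was 0.17 higher in Ang II than in Control mice as measured, against 0.09 for all transcripts, 0.06 for protein_coding and 0.30 for retained_intron transcripts. Relative to all transcripts, it was 0.07 higher as measured and after quantile normalization, 0.14 with a pseudocount of 0.1, 0.04 against all transcripts without a filter, and 0.03 with 1 FPKM required in all mice (145 NMD transcripts). Coding transcripts of the same genes had a median difference of 0.05 (964 transcripts).

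**Figure D3:**
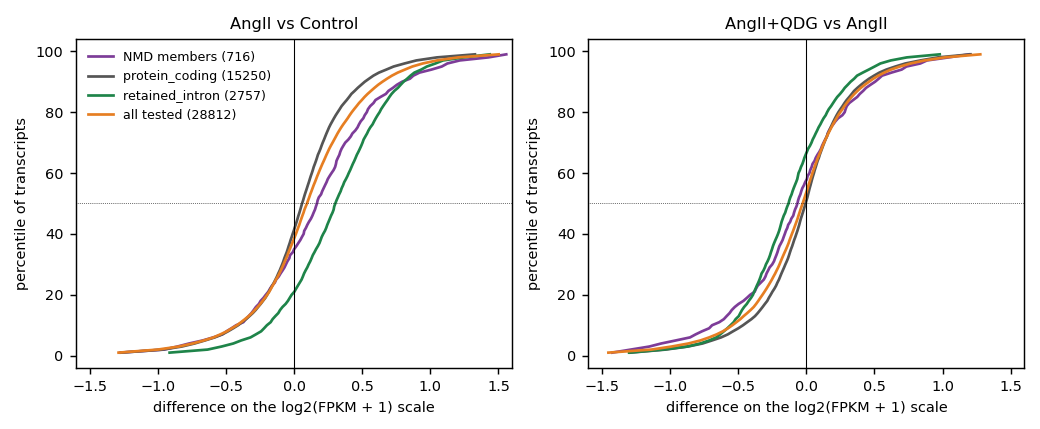
Percentiles of the differences on the log2(FPKM + 1) scale for the infusion against saline (left) and the granule against the infusion alone (right), in the 716 NMD transcripts, the tested protein_coding and retained_intron transcripts and all tested transcripts. In the left panel the NMD curve crosses 50% at 0.17, between protein_coding (0.06) and retained_intron (0.30), and in the right panel at -0.07.

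The second comparison, Ang II + QDG vs. Ang II, asked what the granule changed in infused mice. 0 NMD transcripts passed at an adjusted p under 0.05 in either direction (limma; smallest adjusted p = 0.0754), against 0.0278% up and 0.0694% down among all transcripts, and 57 (7.96%) had an unadjusted p under 0.05, against 11.3%. At the study's threshold 5 (0.698%) were upregulated and 16 (2.23%) downregulated, against 0.902% and 1.33%. The median difference was -0.07, against -0.03 for all transcripts.

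The 3 with the smallest p-values differed in kind. Pofut2, protein O-fucosyltransferase 2, adds fucose to thrombospondin repeats. Pofut2-203 was at 0.9753, 2.02, 0.696, 1.13 and 1.499 FPKM in Ang II mice and at 0.301, 0, 0, 0.168 and 0 FPKM in Ang II + QDG mice, without overlap, a difference of -1.03 (adjusted p = 0.0754, limma). In Control mice it was at 0.306 to 1.62 FPKM. Pofut2-203 thus met the filter through Control and Ang II mice alone, the groups in which it was higher. Atp11a, a phospholipid flippase, gave Atp11a-207, which met the filter through infused mice alone (4 Ang II mice and 1 Ang II + QDG mouse). It was at 0.406 to 0.726 FPKM in Control mice and 0.996 to 4.15 FPKM in Ang II mice and did not pass the test (difference 1.12, adjusted p = 0.0556, limma). It was at 0.248 to 1.30 FPKM in Ang II + QDG mice (difference from Ang II -1.07, adjusted p = 0.0958, limma), and without Ang II mouse 1 both adjusted p-values fell below the threshold, to 0.0344 and 0.0451. Sys1-203, of a Golgi protein gene, was at 0.00331 to 2.16 FPKM in Ang II and 2.68 to 6.90 FPKM in Ang II + QDG mice, a difference of 1.93 (adjusted p = 0.113, limma).

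Because both comparisons use the Ang II mice, opposite movements in them are not independent. 10 NMD transcripts (1.40%) reached the study's threshold in both with opposite sign, against 180 of all transcripts (0.625%), and those beyond the 6 described were Atp11a-207, Slc35b4-202, Exosc5-205 and Cyp2d9-208. Usp4 encodes a ubiquitin-specific protease. Usp4-207 was at 0.0875, 0.0142, 1.07, 0 and 0.699 FPKM in Control mice, 2.18, 3.17, 1.48, 3.13 and 4.97 FPKM in Ang II mice and 1.86, 0.122, 0.949, 1.62 and 0.132 FPKM in Ang II + QDG mice. Ang II mice were all above Control mice (difference 1.54, adjusted p = 0.0509, limma) and overlapped with Ang II + QDG mice (difference -1.09, adjusted p = 0.204, limma).

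For 5 of these 6 the pattern rested on a few mice or on values of 0. Tdp2-205, of a phosphodiesterase that removes topoisomerase 2 from DNA, was at 0 in 4 Control mice, 1 Ang II mouse and all 5 Ang II + QDG mice, and at 9.53 to 12.99 FPKM in every other mouse. Ftl1-202, of the ferritin light chain gene, reached 144 FPKM in Ang II mouse 1 and 8.61 to 16.6 FPKM in the other Ang II mice. Mpv17l-206 reached 77.7 FPKM in Ang II mouse 5 and 4.76 to 14.5 FPKM in the others of that group. Smc6-205, of a subunit of the SMC5/6 DNA repair complex, went the other way: it was at 0 in 3 Ang II mice, at 2.61 to 6.24 FPKM in Control and at 4.30 to 5.84 FPKM in Ang II + QDG mice. Gm28040-201 was at 2.40 to 6.98 FPKM in Ang II and at 0 to 3.75 FPKM in Control mice, with 1 Ang II + QDG mouse at 7.10 FPKM.

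In Ang II + QDG vs. Control, 0 NMD transcripts passed at an adjusted p under 0.05 (limma; 0.0139% of all transcripts rose and 0.0104% fell), 60 had an unadjusted p under 0.05 (8.38%; 10% of all), and 9 rose and 7 fell at the study's threshold (1.17% and 0.85% of all). Icmt-204 (difference 0.91, adjusted p = 0.0916), Rabggtb-211 (1.16, adjusted p = 0.138) and Col27a1-206 (0.96, adjusted p = 0.146) had the smallest p-values in this limma fit. Rabggtb encodes the beta subunit of the enzyme that prenylates RAB proteins. Rabggtb-211 was at 2.57 to 5.92 FPKM in Control, 5.54 to 11.1 FPKM in Ang II and 6.95 to 17.8 FPKM in Ang II + QDG mice, and the last group did not overlap with Control.

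The share of a gene's FPKM asks whether the NMD transcript moved against its own gene. 0 of 644 shares passed at an adjusted p under 0.05 in any of the 3 comparisons (limma on arcsine-square-root shares), against 0.0351%, 0.0281% and 0.0211% of the 14240 transcripts tested. 50, 39 and 46 had an unadjusted p under 0.05 (7.76%, 6.06% and 7.14%), against 12.4%, 7.46% and 7.15% of all. The median change was 0.365 percentage points in Ang II vs. Control, with quartiles of -2.56 and 4.60 points. The group means of single shares lay further apart, by over 10 points upward in 91 and downward in 62.

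The smallest p-values among shares in Ang II vs. Control belonged to Usp4-207, Nmrk1-204 and Tmem39b-202. Usp4-207 held 1.5% ± 1.9 (SD, n = 5) of its gene in Control mice, 10.4% ± 2.8 in Ang II mice and 4.2% ± 3.6 in Ang II + QDG mice (adjusted p = 0.130 for Ang II vs. Control, limma). Nmrk1, nicotinamide riboside kinase 1, makes NAD precursors, and Nmrk1-204 held 3.5% ± 1.6, 8.7% ± 2.0 and 6.1% ± 2.5 (adjusted p = 0.195). Tmem39b-202 held 10.5% ± 16.6, 37.0% ± 5.5 and 33.0% ± 9.3 (adjusted p = 0.195). Its Control values were 0.218, 2.41, 0.31, 0 and 0 FPKM against 1.72 to 2.33 FPKM in Ang II mice, and without Control mouse 2 the share passed (adjusted p = 0.0154).

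In the comparisons with the granule, Pofut2-203 held 9.4% ± 3.6 (SD, n = 5) of its gene in Ang II mice and 0.8% ± 1.2 in Ang II + QDG mice (adjusted p = 0.193, limma). Tma16-202 went from 51.4% ± 24.2 to 0.9% ± 1.0 (adjusted p = 0.193) and Sys1-203 from 2.7% ± 4.8 to 37.1% ± 21.9 (adjusted p = 0.378). The listed transcripts of Tma16 summed to only 1.25 to 2.28 FPKM over all mice, so its share moved with little FPKM. Tma16-202 met the filter without any Ang II + QDG mouse. Stoml1-206 held 66.6% ± 6.3 in Control and 10.1% ± 6.1 in Ang II + QDG mice, without overlap in level, and Commd8-205 47.8% ± 7.6 and 19.5% ± 3.2. Their adjusted p-values for Ang II + QDG vs. Control were 0.338 and 0.369 (limma).

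NMD transcripts varied strongly between mice of one group. In 68 of the 160 that reached 10 FPKM anywhere (42.5%), a second mouse of that group had less than 1 FPKM, against 15.7% of protein_coding (978 of 6246) and 29.002% of retained_intron transcripts (125 of 431). The median coefficient of variation within groups was 60.2% for the 644 NMD transcripts of the share test and 14.996% for the summed FPKM of their genes, and it was 31.2% for tested protein_coding transcripts, which were higher in level. Lpl, lipoprotein lipase, shows the pattern. Lpl-203 was at 139, 0, 140, 173 and 97.7 FPKM in Control mice, while the only other listed transcript, Lpl-201, was at 12.6, 111, 19.2, 15.1 and 15.7 FPKM in the same mice. The gene sum stayed between 110.8 and 188 FPKM in that group, so the mouse without Lpl-203 carried its gene's FPKM on Lpl-201.

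**Figure D4:**
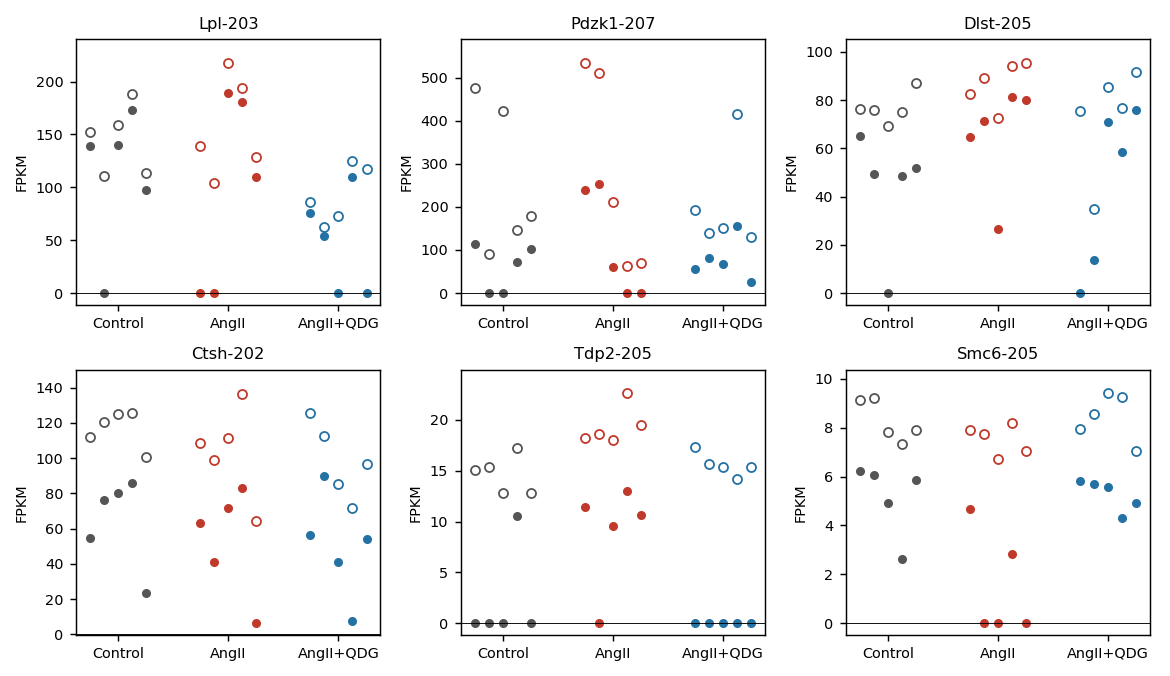
FPKM of 6 NMD transcripts (filled points) and of all listed transcripts of the same gene summed (open points) in each mouse, with the 2 points of a mouse at the same place on the x axis. Lpl-203 is at or near 0 in 5 mice, Dlst-205 at 0 in 2, Tdp2-205 in 10 and Smc6-205 in 3, and in these mice the open point lies well above 0.

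Pdzk1-207, of a scaffold protein of the tubule brush border, was at 0 in 2 Control and 2 Ang II mice and at up to 254 FPKM elsewhere. Dlst-205, of a subunit of the 2-oxoglutarate dehydrogenase complex, was at 0 in 1 Control mouse and 1 Ang II + QDG mouse and at up to 81.2 FPKM in others. Adhfe1-201, of a mitochondrial hydroxyacid transhydrogenase, and Ctsh-202, of the protease cathepsin H, were detected in all mice, at 23.5 to 79.2 and 6.33 to 90.0 FPKM.

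The summed level of all 716 NMD transcripts was a small part of the kidney's RNA. It made up 0.893 to 1.01% of the FPKM of annotated nuclear transcripts (those not from the mitochondrial genome) in Control, 1.02 to 1.14% in Ang II and 0.917 to 1.03% in Ang II + QDG mice. Without the 8 highest, the ranges were 0.654 to 0.697%, 0.752 to 0.796% and 0.707 to 0.742%, which did not overlap. The 145 that reached 1 FPKM in all mice made up 0.532 to 0.639%, 0.539 to 0.685% and 0.518 to 0.636%, and all 716 took 11.5 to 13.8%, 12.6 to 14.0% and 11.9 to 13.9% of the FPKM of their genes, and these ranges overlapped. The median share within a mouse, over genes, was 9.81 to 10.7%, 11.1 to 11.9% and 10.3 to 11.5%. These sums are descriptions and have no test. Retained_intron transcripts made up 2.41 to 2.67% in Control, 2.86 to 3.38% in Ang II and 2.31 to 3.32% in Ang II + QDG mice, and mitochondrial transcripts took 20.7 to 22.9%, 17.4 to 18.1% and 19.0 to 22.2% of annotated FPKM. The part of these values in the NMD sums was not tested.

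**Figure D5:**
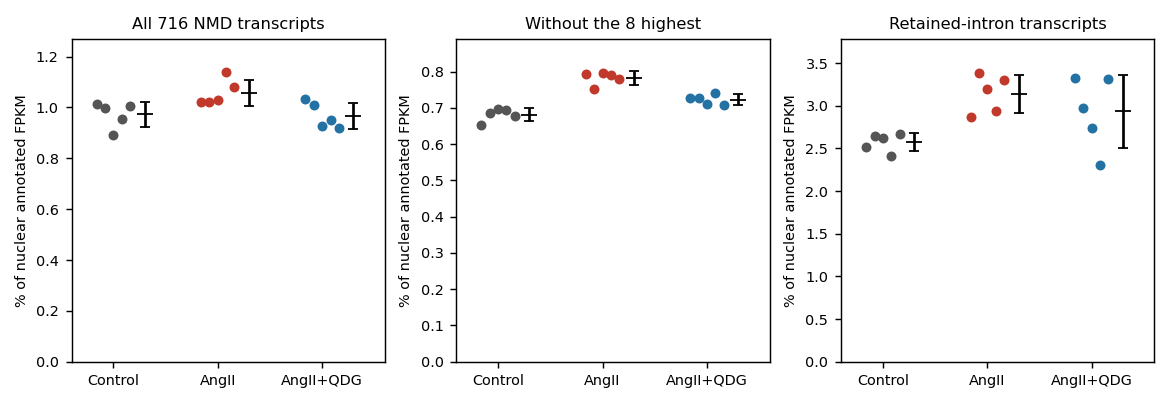
Percent of the FPKM of annotated nuclear transcripts held by the 716 NMD transcripts, by the same without the 8 highest, and by retained_intron transcripts in each mouse (points), with the mean and SD of each group of 5. Without the 8 highest, all Ang II mice lie at 0.752% or above and all Control mice at 0.697% or below.

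The genes of the NMD machinery itself were measured as summed FPKM of the listed Ensembl transcripts of each gene (12366 genes). Of 13 core NMD factors 12 were tested, and 0 passed at an adjusted p under 0.05 in any comparison (limma), against 4.95% of genes up and 0.995% down in Ang II vs. Control. In the 3 comparisons 3, 0 and 2 had an unadjusted p under 0.05 (25%, 0% and 16.7%), against 22.7%, 16.4% and 14.4% of all genes. UPF1 is the helicase at the centre of the pathway, and Upf1 was under the filter at 0.256 to 0.939 FPKM over all mice. Upf2, its partner on the exon junction complex, ranged from 0 to 6.35 FPKM and Smg1, the kinase that phosphorylates UPF1, from 0.018 to 7.58 FPKM, with all groups overlapping.

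The smallest p-values in Ang II vs. Control were those of Upf3a, which bridges UPF2 and the junction complex, Smg9 and Smg5. Upf3a went from 7.39 ± 0.594 FPKM (SD, n = 5) in Control to 9.18 ± 0.377 FPKM in Ang II mice, without overlap (difference 0.28 ± 0.08 (SE), adjusted p = 0.0574, limma). It was at 8.62 ± 1.08 FPKM in Ang II + QDG mice. Smg9, a regulator of the SMG1 kinase, was at 7.45 ± 1.33, 9.40 ± 0.878 and 9.25 ± 0.291 FPKM (difference in Ang II vs. Control 0.31, adjusted p = 0.0889, limma). Smg5, which recruits decay enzymes, differed by 0.21 (adjusted p = 0.205, limma). The smallest p-values in Ang II + QDG vs. Ang II, those of Nbas, Dhx34 and Smg8, gave adjusted p-values of 0.415, 0.559 and 0.589 (limma). For Ang II + QDG vs. Control they were those of Smg9, Upf3a and Upf3b, at adjusted p-values of 0.213, 0.299 and 0.413.

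Of the 9 exon junction complex genes, 1 rose in Ang II vs. Control, where 4.95% of all genes rose. Acin1, of a peripheral component, went from 5.66 to 7.21 FPKM in Control to 9.01 to 16.8 FPKM in Ang II and 7.63 to 14.9 FPKM in Ang II + QDG mice (difference 0.87 ± 0.18 (SE), adjusted p = 0.0154, limma). In the 3 comparisons, 3, 2 and 1 of the 9 junction complex genes had an unadjusted p under 0.05 (33.3%, 22.2% and 11.1%; limma). All 9 were higher in Ang II than in Control mice (64.8% of all genes). In Ang II + QDG mice 8 were lower than in Ang II mice (6637 of 12366 genes). 0 of the 11 tested termination and mRNA decay genes passed in any comparison (limma), and 2, 3 and 0 had an unadjusted p under 0.05 (18.2%, 27.3% and 0%, against 22.7%, 16.4% and 14.4% of all genes). None of the genes of these 3 lists holds an NMD transcript among the 716.

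Splicing regulators were the gene group with the most NMD transcripts among the lists examined: 30 transcripts of 26 genes. As gene sums, 22 of 79 tested splicing regulators rose and 0 fell in Ang II vs. Control (limma, adjusted p under 0.05), against 4.95% and 0.995% of all genes, at a median of 0.31 against 0.08. In Ang II + QDG vs. Ang II 1 rose and 2 fell (0.526% and 1.29% of all genes), and in Ang II + QDG vs. Control 0 passed. Of their 30 NMD transcripts 0 passed (0.531% of all transcripts rose), at a median difference of 0.20, and their shares had a median change of -0.005 on the arcsine scale. Ddx5-208, of an RNA helicase with roles in splicing, was at 10.3, 11.3, 14.2, 9.23 and 17.8 FPKM in Control mice, 18.7, 23.8, 24.9, 15.7 and 25.4 FPKM in Ang II mice and 13.6, 23.7, 19.1, 12.5 and 16.8 FPKM in Ang II + QDG mice (difference in Ang II vs. Control 0.76, adjusted p = 0.0881, limma). Only the lowest Ang II mouse lay within the Control range.

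The other 3 highest of this group were steadier. Qk-202, of the RNA-binding protein Quaking, ranged from 9.57 to 11.9, 9.84 to 11.3 and 10.8 to 12.2 FPKM and held 79.6% of its gene. Hnrnpa2b1-207 ranged from 5.39 to 10.2 FPKM and held 3.3% of its gene, and Hnrnpll-203 ranged from 5.10 to 10.4 FPKM and held 49.1%. Hnrnpa2b1 and Hnrnpll encode nuclear ribonucleoproteins that bind pre-mRNA.

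Ribosomal protein genes gave 12 NMD transcripts of 10 genes, and 0 passed in any comparison at an adjusted p under 0.05 (limma), where 0.531% of all transcripts rose and 0.16% fell in Ang II vs. Control. Rps19-205 ranged from 15.6 to 38.3 FPKM over all mice. Rpl13a had 3, of which Rpl13a-205 was at 24.2 to 48.4 FPKM in 13 mice and at 0 in 1 Ang II and 1 Ang II + QDG mouse. Solute carriers gave 17 NMD transcripts of 14 genes with a median difference of 0.03 in Ang II vs. Control, and translation factors gave 3 transcripts of 3 genes.

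Of the 640 genes, 577 had 1 NMD transcript, 54 had 2 and 9 had 3 or more: Adhfe1, Dusp12, Mindy3, Ppp1cc, Rabggtb, Rpl13a, Surf1, Tmem234 and Ufsp2. Transcripts of one gene overlap and share reads, so their values are not independent. In Tmem234 the NMD transcripts led: Tmem234-210 was at 11.05 to 16.8 FPKM, Tmem234-203 at 3.27 to 11.9 FPKM and the coding Tmem234-201 at 1.31 to 2.97 FPKM over all mice. In Rabggtb, Rabggtb-211 and Rabggtb-205 held 35.9% and 29.5% of the gene. In Dusp12, of a dual-specificity phosphatase, 2 of the 4 NMD transcripts had means that differed in opposite directions: Dusp12-203 averaged 0.340 FPKM in Control mice against 1.26 FPKM with Ang II, and Dusp12-204 averaged 1.53 and 1.03 FPKM, neither past the test (adjusted p = 0.101 and 0.409, limma).

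As gene sums, 42 of the 640 genes that hold NMD transcripts rose and 4 fell in Ang II vs. Control (6.56% and 0.625%; 4.95% and 0.995% of all genes; limma), 1 rose and 8 fell in Ang II + QDG vs. Ang II (0.526% and 1.29% of all genes), and 2 rose in Ang II + QDG vs. Control (0.097% of all genes rose and 0.0323% fell).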

How the data were processed

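The authors deposited 1 table per mouse with a value per transcript. The labels name no unit. The deposited values were treated as FPKM because, after multiplication by transcript length, they fell on whole multiples (within 0.05) of a step found for each mouse, for 98.5% to 98.7% of values under 200 reads. Per the labels, total RNA was depleted of rRNA (the study's methods add a poly(A) step), and the submitters' processing notes name mm10 and limma; the aligner and counter are not given in the sources used here. Transcripts were annotated with GENCODE M21 (GRCm38).

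The 28812 transcripts with at least 1 FPKM in 5 or more mice were fitted together on log2(FPKM + 1) with limma 3.58.1 (R 4.3.3; mean-variance trend; 12 residual degrees of freedom). Shares of the gene's summed FPKM (14240 transcripts; gene sum at least 1 FPKM in every mouse and at least 2 listed transcripts) were fitted on the arcsine-square-root scale, and gene sums on log2(FPKM + 1). A fold change understates that of low transcripts. The fits were tested on simulated data. Members and gene lists were chosen with earlier results of these data known. Transcripts were named by a rule: smallest p in each comparison, highest level or share, opposite changes, and genes with 3 or more; 1 transcript the rule named is not reported here. Alternatives covered pseudocount, filter, scaling, weights and each mouse left out. Nothing shows whether the 5 samples of a group came from separate extractions beyond separate labels, so p-values measure the spread between them. Depth limits cover counting error only.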

Additional observations from a re-analysis of the deposited data

Results flagged for a closer look

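Of 126 groups of 5 mice examined for the named transcripts and summed levels, 10 (7.94%) held a mouse whose gap to the next exceeded 0.71 of the group's range. For normally distributed values chance gives such a gap in about 1 group in 20. The FPKM values here include groups mostly at 0, so the 10 groups cannot be set against that rate. In Control mice these were Tmem39b-202 (2.41 FPKM in 1 mouse), Dlst-205 (0 in 1 mouse), Tdp2-205 (10.6 FPKM in 1 mouse) and Mpv17l-206 (6.73 FPKM in 1 mouse). In Ang II mice they were Nmrk1-204 (5.91 FPKM), Sys1-203 (2.16 FPKM), Tdp2-205 (0), Ftl1-202 (144 FPKM, the next being 16.6 FPKM) and Mpv17l-206 (77.7 FPKM, the next being 14.5 FPKM). In Ang II + QDG mice it was Gm28040-201 (7.10 FPKM). The mouse at 2.41 FPKM of Tmem39b-202 is the one without which its share passed.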

How the results depend on the processing

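No paired analysis was possible because the groups are different mice and the labels do not pair them. The mouse numbers used here only give the order within a group. Counts of NMD transcripts are given here as called under each alternative. In Ang II vs. Control, the 2 transcripts at an adjusted p under 0.05 became 1 without a filter, with quantile normalization, with median scaling and without the variance trend, and 6 with array weights, where the calls over all transcripts went from 153 up and 46 down to 330 and 67; leaving out 1 mouse gave 1 to 6 (5 without Ang II mouse 1 and 6 without Ang II + QDG mouse 4; 1 without Control 1, 3 or 5, Ang II 2 or 5, or Ang II + QDG 2 or 5). At the study's threshold the 24 that rose became 46 with a pseudocount of 0.1 (6.42%, against 4.94% of all transcripts), 6 of 145 with 1 FPKM required in all mice (4.14%, against 0.929%), and 12 with either scaling (leave-one-out 18 to 27), and the 6 that fell became 1 with the stricter filter (0.498% of all; 5 to 9). In Ang II + QDG vs. Ang II, the 0 at an adjusted p stayed at 0 to 1 (1 without Ang II mouse 1 or Ang II + QDG mouse 3), the 5 that rose became 11 with a pseudocount of 0.1 and 1 with the stricter filter (of all transcripts 1.62% and 0.407%; 5 to 10; 10 without Ang II mouse 2 and 8 without Ang II + QDG 1, 2, 3 or 4), and the 16 that fell became 26 and 3 (2.40% and 0.614%; 14 to 18). In Ang II + QDG vs. Control, the 0 at an adjusted p became 1 with the stricter filter (0 to 2; 2 without Ang II + QDG mouse 4, 1 without Control 2 or Ang II 3), the 9 that rose became 26 and 1 (2.81% and 0.473%; 6 to 18; 18 without Control mouse 2), and the 7 that fell became 0 with the stricter filter (0.349% of all; 4 to 9; 4 without Control mouse 4). Leaving out the 68 transcripts that swing within a group, an alternative chosen after seeing the data, gave 21 and 5, 5 and 14, and 7 and 5 at the study's threshold. Swinging transcripts were not left out of all transcripts in the same way, so these counts cannot be set against the shares of all. No share passed except 1 in Ang II vs. Control without Control 2 or 4 and 1 in Ang II + QDG vs. Control without Control 2 or with only the groups compared (0 to 1 in either). Acin1 was joined by Upf3a, for 2 machinery genes, without Ang II + QDG 2 or 3, and the count was also 2 without Ang II 5 (1 to 2). The filters leave fewer transcripts by construction, and the cause of the other changes was not tested. Differences of named transcripts kept their sign in the comparison that named them. At a median of 170 to 273 reads per NMD transcript and mouse, gene sums varied within groups by a median of 14.996% and the transcripts by 60.2% (644 of the share test), and the part of read division among overlapping transcripts was not tested.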

Other observations

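Besides the 1136 NMD transcripts listed in all mice, 74 were listed only in Control mice and 94 only in the other groups, and none of these entered a comparison. By the position of the stop, transcripts with a stop in bases that no coding transcript has in an exon gave 13 that rose and 1 that fell among 251 at the study's threshold in Ang II vs. Control (5.18% and 0.398%, against 1.93% and 0.954% of all transcripts), and 1 that rose and 9 that fell in Ang II + QDG vs. Ang II (0.398% and 3.59%, against 0.902% and 1.33%). Those with a stop in bases that a coding transcript translates gave 9 and 5 among 370 (2.43% and 1.35%), and 2 and 5 (0.541% and 1.35%). These counts include transcripts that met the filter through treated mice alone, since 30 of the 716 were under 1 FPKM in every Control mouse. The split was made after the values were seen and the difference between the kinds was not tested.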
